A study of Mus musculus with 24 samples.

Results

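The suppressors of cytokine signalling were followed in mouse heart: Cish and Socs1 to Socs7, 8 genes chosen by their symbols and not by their values. All 8 were found among the 52350 genes counted in each of 24 heart libraries, and all 8 passed the filter on low counts that left 15294 genes for testing. At rest, hearts taken at ZT12 held more Socs2 transcript and less Socs1 transcript than hearts taken at ZT0. Running at ZT0 was followed by lower Socs1, a gene barely above the detection limit. That exercise call is fragile, and it was lost in 8 of 24 fits that left out a single library. In the edgeR fit to all libraries, none of the other 6 genes passed the test in any comparison.

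These proteins shut off the signals that started their own synthesis. A cytokine receptor activates Janus kinases (JAKs), which phosphorylate STAT transcription factors, and STATs switch on SOCS genes. The SOCS protein then binds the receptor or the kinase through its SH2 domain, and its SOCS box recruits elongins and a cullin that mark the bound partner for degradation. In the heart, signalling through the gp130 receptor family is known for its part in cardiomyocyte survival and hypertrophy, and Socs3 is its best-known brake.

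Hearts came from C57Bl/6 males of wild-type genotype, 12 weeks old and on a cycle of 12 h light to 12 h dark. In zeitgeber time (ZT), lights go on at ZT0 and off at ZT12, so that ZT0 opens the rest phase of a mouse and ZT12 its active phase. The ZT12-EX and ZT0-EX mice, used to the treadmill beforehand, ran for 60 min at 10 m/min and 0% grade at the named time, and the ZT12-SED and ZT0-SED mice were their sedentary controls. Each group held 6 mice, with replicates 1 to 3 on the first flow cell (flow cell 1) and replicates 4 to 6 on the second (flow cell 2). The sources used here do not give the interval between the bout and the collection of the heart.

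Library totals ran from 9697334 to 23067191 counts, and levels are given as CPM, counts relative to library size after TMM scaling. The 6 cardiomyocyte markers were detected in every library, with a summed level of 18557 to 161057 CPM. Mitochondrial transcripts made up 25.5% to 55.1% of a library on flow cell 1, where ZT12-SED had 40.7% to 55.1%, and 2.70% to 23.7% on flow cell 2. The correlation across genes between transcript GC content and a library's level relative to the average library (Spearman) lay between -0.82 and 0.24 in libraries of flow cell 1, and in those of flow cell 2 between 0.44 and 0.70. ZT12-SED of flow cell 1 had the lowest values, -0.82 to -0.76. A further 6 libraries, namely replicates 4, 5 and 6 of ZT0-EX and replicate 6 of each other group, carried transcripts of fast skeletal muscle, with 829 to 3350 CPM summed over 12 markers against 59.9 to 202 CPM in the other 18. The 3 libraries that correlated least with the rest were ZT12-EX replicate 4 and ZT12-SED replicates 1 and 2. In bulk hearts, fewer cells of a type and less RNA per cell cannot be told apart.

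Promoter sequence was at hand for 4 of the 8 genes, Socs1, Socs3, Socs4 and Cish, from RefSeq on the build GRCm38.p6. Socs2, Socs5, Socs6 and Socs7 are named only. Each window is 300 bases long, holds 250 bases before the start site and 50 from it on, and is written 5′ to 3′ along the gene's own strand. The Socs1 window is shown because Socs1 changed in these hearts, and the Cish and Socs3 windows because both genes are textbook targets of STATs. Capitals mark matches to the STAT motif TTCNNNGAA or to the interferon regulatory factor (IRF) motif, which is GAAA followed by any 2 bases and GAAA again, searched on both strands. The windows lie at chr9:107296409-107296708 on the plus strand (Cish), chr16:10785487-10785786 on the minus strand (Socs1) and chr11:117969317-117969616 on the minus strand (Socs3).
Cish: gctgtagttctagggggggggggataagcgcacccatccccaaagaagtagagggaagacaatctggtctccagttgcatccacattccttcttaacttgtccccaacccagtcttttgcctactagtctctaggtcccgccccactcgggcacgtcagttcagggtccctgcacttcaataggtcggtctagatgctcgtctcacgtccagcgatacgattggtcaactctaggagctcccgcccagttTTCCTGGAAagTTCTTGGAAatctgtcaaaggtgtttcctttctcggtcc
Socs1: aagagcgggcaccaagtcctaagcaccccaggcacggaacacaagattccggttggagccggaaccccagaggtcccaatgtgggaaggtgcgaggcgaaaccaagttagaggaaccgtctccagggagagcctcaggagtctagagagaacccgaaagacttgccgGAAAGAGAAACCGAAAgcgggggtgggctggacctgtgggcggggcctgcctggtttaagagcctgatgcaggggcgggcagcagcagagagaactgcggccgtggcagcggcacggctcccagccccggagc
Socs3: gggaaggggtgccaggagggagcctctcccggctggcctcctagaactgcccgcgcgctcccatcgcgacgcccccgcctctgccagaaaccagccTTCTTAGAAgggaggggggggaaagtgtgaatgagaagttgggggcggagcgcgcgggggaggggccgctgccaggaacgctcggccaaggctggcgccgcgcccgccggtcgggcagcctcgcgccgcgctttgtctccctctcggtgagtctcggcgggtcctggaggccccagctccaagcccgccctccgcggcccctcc

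The Cish window held a pair of STAT matches, TTCCTGGAA at bases 251 to 259 and TTCTTGGAA at bases 262 to 270, beside the start site. In the Socs1 window 2 IRF matches, GAAAGAGAAA at bases 168 to 177 and GAAACCGAAA at bases 174 to 183, overlapped each other. The Socs3 window held a single STAT match, TTCTTAGAA, at bases 97 to 105. No match to either motif was found in the Socs4 window, and none of the 4 windows held the clock-factor motif CACGTG, which says only that these letters are not there. Among 32851 mouse promoters of the same length, 8.30% held the STAT motif, 3.44% the IRF motif and 7.15% CACGTG. A match is a description of the letters, not evidence that a factor binds there.

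Per kilobase of exon, Cish had the highest mean level of the family over all 24 hearts and Socs1 the lowest. Averaged over all 24 hearts, the levels were 6.35 ± 2.70 CPM per kilobase for Cish, 4.54 ± 2.75 for Socs2, 3.36 ± 0.968 for Socs5, 2.95 ± 1.78 for Socs4, 2.78 ± 0.697 for Socs7, 1.49 ± 0.701 for Socs6, 1.34 ± 0.469 for Socs3 and 0.178 ± 0.141 for Socs1 (SD, n = 24). Of the 7 pairs of neighbours in this order, Socs3 and Socs1 alone lay apart by more than their SDs, with Socs3 above Socs1 in 24 of 24 libraries. For the other 6 pairs the ranges of mean ± SD, taken over all groups and flow cells, overlapped. Compared within libraries, Socs7 still stood above Socs6 in 22 of 24. Cish stood above Socs2 in 18 libraries, Socs2 above Socs5 in 14, Socs5 above Socs4 in 17, Socs4 above Socs7 in 9 and Socs6 above Socs3 in 11. The top of the order differed between flow cells. On flow cell 1 Socs2 averaged 5.81 ± 3.41 CPM per kilobase and Cish 4.51 ± 1.47, and Socs2 stood above Cish in 6 libraries, those of ZT12-EX and ZT12-SED. On flow cell 2 Cish averaged 8.20 ± 2.40 and Socs2 3.27 ± 0.824, with Cish higher in 12 of 12 libraries (SD, n = 12 each). Dividing by the longest transcript in place of all exons put Socs2 first, at 10.2 CPM per kilobase, and Cish next, at 8.68.

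Cish and Socs2 are the members known as feedback inhibitors of growth hormone, prolactin and erythropoietin signalling through STAT5, and mice without Socs2 grow unusually large. Socs2 (ENSMUSG00000020027, chromosome 10) ranged from 34.2 to 86.8 CPM in ZT12-EX hearts, with a median of 41.8 CPM, and from 37.6 to 134 CPM in ZT12-SED hearts, with a median of 56.7 CPM. It ranged from 20.4 to 39.3 CPM in ZT0-EX hearts (median 26.6 CPM) and from 19.1 to 32.0 CPM in ZT0-SED hearts (median 30.2 CPM). All 6 ZT12-SED hearts lay above all 6 ZT0-SED hearts, so those groups did not overlap.

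In sedentary mice Socs2 was 2.22-fold higher at ZT12 than at ZT0, a log2 fold change of 1.15 ± 0.20 (SE; edgeR quasi-likelihood test, adjusted p = 0.00138). Of all genes tested in that comparison, 5.20% passed the threshold of 0.05, 2.46% upward and 2.74% downward, and of the 8 family members 2 passed, Socs2 upward and Socs1 downward. On flow cell 1 the difference in mean log2 CPM was 1.57, on flow cell 2 it was 0.67, and the groups did not overlap on either. The larger value belongs to the flow cell whose ZT12-SED libraries had the lowest GC correlation and the highest mitochondrial share. With offsets for GC content in the fit, the Socs2 fold change was 0.91 with an adjusted p of 0.00155. Without the 3 libraries that correlated least with the rest it was 0.85 with an adjusted p of 0.00631. A fit to flow cell 2 alone gave 0.64 and did not pass, with an adjusted p of 0.446, in a comparison where 35 genes passed in all. On flow cell 1 alone 6552 of 15071 genes passed. The share of all genes whose groups did not overlap is not given here, for this or any other comparison.

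Exercised mice gave a similar but smaller time-of-day difference for Socs2. It was 0.76 ± 0.20 on the log2 scale for ZT12-EX against ZT0-EX and missed the threshold (edgeR, adjusted p = 0.0536). All 6 ZT12-EX hearts lay above the ZT0-EX median, 4 lay above the highest ZT0-EX heart, and the groups did not overlap within either flow cell (difference in mean log2 CPM 0.85 and 0.62). In that comparison 1.65% of all genes passed, 0.811% upward and 0.837% downward, and none of the 8 members did, with 1 member below an unadjusted p of 0.05. DESeq2 and limma-voom each passed Socs2, at adjusted p values of 0.0133 and 0.0443, where they passed 535 of 15282 and 269 of 15294 genes. Running itself moved Socs2 little at ZT0, by -0.01 ± 0.20 (edgeR, adjusted p = 0.986). At ZT12 the exercise effect was -0.41 ± 0.20 (edgeR, adjusted p = 0.311), and the difference between those effects was -0.39 ± 0.28 (edgeR, adjusted p = 0.599).

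**Figure D1:**
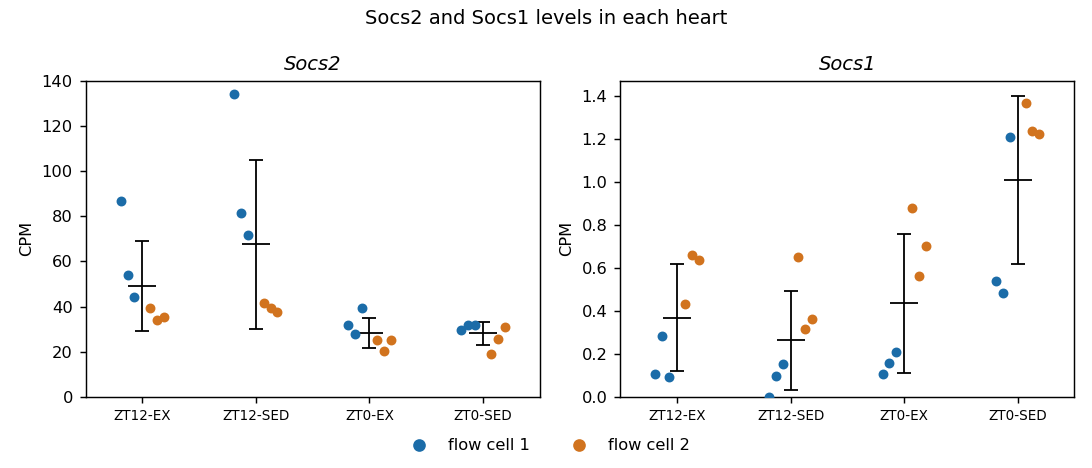
Levels of Socs2 and Socs1 (y axis, CPM on a linear scale) in each heart, by group and flow cell; points are hearts, the horizontal line is the mean and the bar 1 SD (n = 6). For Socs2, all 6 ZT12-SED hearts stand above the highest ZT0-SED heart at 32.0 CPM. For Socs1, each flow cell has its own highest values in ZT0-SED.

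Cish (ENSMUSG00000032578, chromosome 9) ranged from 14.6 to 69.1 CPM in ZT12-EX hearts (median 40.4 CPM) and from 12.5 to 70.2 CPM in ZT12-SED hearts (median 42.5 CPM). It ranged from 31.5 to 50.5 CPM in ZT0-EX hearts (median 47.6 CPM) and from 22.6 to 58.0 CPM in ZT0-SED hearts (median 28.7 CPM). The groups overlapped in each comparison, although all 6 ZT0-EX hearts lay above the ZT0-SED median. Its exercise effect at ZT0 was 0.44 ± 0.27 on the log2 scale (edgeR, adjusted p = 0.554), and the differences in mean log2 CPM were 0.43 and 0.57 on flow cells 1 and 2. At ZT12 exercise gave -0.02 ± 0.27 (edgeR, adjusted p = 0.973). The time-of-day difference in sedentary mice, 0.29 ± 0.28 (edgeR, adjusted p = 0.462), had opposite signs on the flow cells, at -0.41 (flow cell 1) and 0.98 (flow cell 2). In exercised mice it was -0.17 ± 0.27 (edgeR, adjusted p = 0.826). Exons of Cish overlap those of Gm17040 and Gm17041 on the opposite strand by 261 and 479 bases. Both overlapping genes held few reads, 161 and 8 counts in all against 16543 for Cish.

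Socs1 and Socs3 are the members that also carry a kinase inhibitory region and block JAKs directly. Socs1 is known above all as the brake on interferon-gamma and common gamma chain cytokine signalling. Socs1 (ENSMUSG00000038037, chromosome 16) was barely above the detection limit, with 215 counts in all 24 libraries together. Its level ranged from 0.0901 to 0.658 CPM in ZT12-EX hearts (median 0.357 CPM) and from 0 to 0.649 CPM in ZT12-SED hearts (median 0.234 CPM). In ZT0-EX hearts it ranged from 0.106 to 0.880 CPM (median 0.385 CPM) and in ZT0-SED hearts from 0.481 to 1.37 CPM (median 1.22 CPM). The ZT0-SED hearts were the high group, and the other 3 groups overlapped one another widely. Summed over 6 hearts, the raw counts were 32 in ZT12-EX, 24 in ZT12-SED, 52 in ZT0-EX and 107 in ZT0-SED. In 7 libraries, all of them on flow cell 1, Socs1 had 3 counts or fewer, and ZT12-SED replicate 1 had 0, where 3 counts would be 0.575 CPM.

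After running at ZT0, Socs1 was 2.59-fold lower than in ZT0-SED hearts, a log2 fold change of -1.37 ± 0.32 (edgeR, adjusted p = 0.0306). It was the only member among 8 that passed, in a comparison where 1.08% of all genes did. The groups overlapped over all 12 hearts, since flow cell 2 gave higher values throughout. Within each flow cell the 3 ZT0-EX hearts lay below the 3 ZT0-SED hearts, with a difference in mean log2 CPM of -1.57 in flow cell 1 hearts, against -0.76 in those of flow cell 2. The flow cell 1 value rests on ZT0-EX hearts with 2, 3 and 4 counts of Socs1, near the floor. The call is a fragile one: leaving out single libraries ended it in 8 of 24 fits, with adjusted p values up to 0.0905. Those libraries were replicates 1, 2, 3, 5 and 6 of ZT0-EX and replicates 1, 3 and 4 of ZT0-SED. Without the 6 libraries that held skeletal muscle transcripts the fold change was -1.96 and the adjusted p 0.235, with 51 genes passing in all. Those libraries include replicates 4, 5 and 6 of ZT0-EX, so that fit held no ZT0-EX heart of flow cell 2.

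At ZT12 the exercise effect on Socs1 was 0.41 ± 0.41 (edgeR, adjusted p = 0.589). No member passed at ZT12, where 0.294% of all genes did, and none had an unadjusted p below 0.05. DESeq2 and limma-voom also passed none of the 8 there. The difference between the exercise effects at ZT12 and at ZT0 was largest for Socs1 among the members, 1.79 ± 0.52 with an unadjusted p of 0.00221. It did not pass after adjustment (edgeR, adjusted p = 0.571), and 0% of all genes passed that test. Among the members only Socs1 had an unadjusted p below 0.05 for it, and DESeq2 and limma-voom passed none of the 8.

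Sedentary hearts held 4.00-fold less Socs1 at ZT12 than at ZT0, a log2 fold change of -2.00 ± 0.36 (edgeR, adjusted p = 0.00173). Of the 6 ZT12-SED hearts, 5 lay below the lowest ZT0-SED heart, and the groups did not overlap within either flow cell, with differences of -2.08 and -1.36 in mean log2 CPM. The first of these, on flow cell 1, rests on ZT12-SED hearts with 0, 1 and 3 counts of Socs1. With GC offsets the fold change was -1.63 (adjusted p 0.00656). The call was lost on flow cell 2 alone, at -1.57 with an adjusted p of 0.148, and in the fit with no flow cell term, at -1.80 with an adjusted p of 0.192. In exercised mice the time-of-day difference was -0.22 ± 0.36 (edgeR, adjusted p = 0.836).

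Lymphocyte markers stood highest in the same group as Socs1. Summed over 10 markers, of which 7 were tested, they ran from 9.58 to 17.6 CPM in ZT12-EX, from 8.44 to 39.3 CPM in ZT12-SED, from 9.93 to 15.4 CPM in ZT0-EX and from 19.7 to 39.3 CPM in ZT0-SED, and no marker was at 0 in every library. All 6 ZT0-SED hearts lay above all 6 ZT0-EX hearts in this sum. By edgeR none of the 7 markers passed for exercise at ZT0, where 5 had an unadjusted p below 0.05, DESeq2 passed 1 and limma-voom 0, and where their median log2 fold change was -0.91 against -0.01 for all genes. Of all genes, edgeR passed 1.08% there and DESeq2 267 of 15282, and the share at an unadjusted p below 0.05 is not given here. None of the 7 markers passed for time of day in sedentary mice either, where 1 had an unadjusted p below 0.05, DESeq2 and limma-voom passed 0, and the median was -0.59 against -0.01. The 11 macrophage and monocyte markers summed to 400.4 to 888 CPM in ZT12-EX, 451 to 746 CPM in ZT12-SED, 448 to 715 CPM in ZT0-EX and 544 to 925 CPM in ZT0-SED, none of them at 0 in every library. Among them the monocyte receptors Ccr2 and Cx3cr1 fell after exercise at ZT0, by log2 fold changes of -1.79 ± 0.24 and -2.06 ± 0.33 (edgeR, adjusted p = 0.000120 and 0.000766), and the other 9 did not pass. Of all genes, 0.288% were lower there, and the median log2 fold change of the 11 was -0.32 against -0.01 for all genes. Exercise at ZT12 had 1 lower gene of the 11, beside 0.105% of all genes, whereas the median of the 11 was 0.15 against 0.06. On flow cells 1 and 2, Ccr2 then differed by -1.30 and -1.62 in mean log2 CPM and Cx3cr1 by -1.30 and -0.69. Time of day in sedentary mice had 1 lower gene of the 11, beside 2.74%, and a median of -0.36 against -0.01. There Ccr2 differed by 0.85 and 0.14 and Cx3cr1 by -1.54 and -1.88. The part of these cells in the Socs1 result was not tested.

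**Figure D2:**
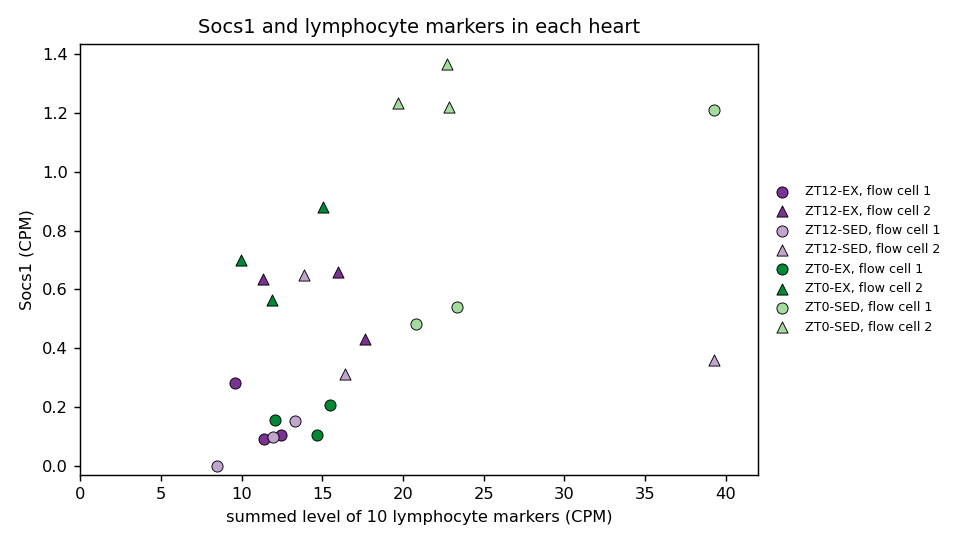
Socs1 (y axis, CPM) against the summed level of 10 lymphocyte markers (x axis, CPM) in each of 24 hearts, coloured by group and shaped by flow cell. The 6 ZT0-SED hearts lie at 19.7 CPM or more on the x axis, and a single other heart, from ZT12-SED, reaches that range.

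Socs3 (ENSMUSG00000053113, chromosome 11), the inhibitor that binds gp130, passed the threshold in no comparison. It ranged from 2.14 to 6.70 CPM in ZT12-EX hearts (median 3.55 CPM) and from 0.959 to 4.93 CPM in ZT12-SED hearts (median 3.57 CPM). It ranged from 2.96 to 5.83 CPM in ZT0-EX hearts (median 4.39 CPM) and from 3.01 to 5.11 CPM in ZT0-SED hearts (median 4.43 CPM). All groups overlapped. Exercise gave 0.04 ± 0.22 at ZT0 and 0.23 ± 0.23 at ZT12 on the log2 scale (edgeR, adjusted p = 0.948 and 0.589). Time of day gave -0.39 ± 0.22 in sedentary and -0.21 ± 0.22 in exercised mice (edgeR, adjusted p = 0.214 and 0.708). The spread among hearts of a group, after flow cell, was an SD of 0.48 in log2 CPM at ZT12 and 0.17 at ZT0. The other members also had the larger SD at ZT12.

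Socs4 and Socs5 are the members known for promoting degradation of the epidermal growth factor receptor, while Socs6 and Socs7 bind insulin receptor substrates and other growth factor signalling proteins. Socs4 (ENSMUSG00000048379, chromosome 14) ranged from 4.65 to 35.6 CPM in ZT12-EX, from 10.6 to 56.0 CPM in ZT12-SED, from 11.1 to 23.5 CPM in ZT0-EX and from 8.20 to 22.8 CPM in ZT0-SED. Socs6 (ENSMUSG00000056153, chromosome 18) ranged from 3.68 to 24.1 CPM in ZT12-EX, from 11.5 to 43.0 CPM in ZT12-SED, from 12.3 to 19.8 CPM in ZT0-EX and from 7.96 to 17.9 CPM in ZT0-SED. Socs6 was highest in ZT12-SED replicates 1, 2 and 3, all of flow cell 1, and Socs4 in replicates 1 and 2 of that group, followed by ZT12-EX replicate 1 (35.6 CPM) and ZT12-SED replicate 3 (34.4 CPM). The groups overlapped for both genes. The time-of-day difference in sedentary mice was 0.68 ± 0.27 for Socs4 and 0.65 ± 0.26 for Socs6 on the log2 scale, and neither passed (edgeR, adjusted p = 0.0956 and 0.0975). DESeq2 passed Socs4, at 0.70 with an adjusted p of 0.0494, where it passed 2845 of 14985 genes in all. On flow cell 1 the ZT12-SED hearts lay above all ZT0-SED hearts for both genes, with differences of 1.35 and 1.07 in mean log2 CPM. On flow cell 2 the groups overlapped, with differences of 0.08 and 0.24. With GC offsets the fold changes were 0.19 and 0.17.

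Exercise moved neither gene past the threshold. For Socs4 the effect was 0.17 ± 0.27 at ZT0 and -0.40 ± 0.27 at ZT12 (edgeR, adjusted p = 0.802 and 0.428). For Socs6 it was 0.26 ± 0.26 at ZT0 and -0.44 ± 0.26 at ZT12 (edgeR, adjusted p = 0.681 and 0.374). In exercised mice the time-of-day differences were 0.12 ± 0.27 for Socs4 and -0.05 ± 0.26 for Socs6 (edgeR, adjusted p = 0.890 and 0.958).

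Socs5 (ENSMUSG00000037104, chromosome 17) ranged from 5.84 to 27.8 CPM in ZT12-EX, from 16.7 to 38.9 CPM in ZT12-SED, from 16.9 to 22.0 CPM in ZT0-EX and from 14.9 to 25.2 CPM in ZT0-SED. Socs7 (ENSMUSG00000038485, chromosome 11) ranged from 14.9 to 30.4 CPM in ZT12-EX, from 10.7 to 23.8 CPM in ZT12-SED, from 20.4 to 27.0 CPM in ZT0-EX and from 11.4 to 26.3 CPM in ZT0-SED. The groups overlapped for both genes in all 4 comparisons. Socs5 differed between groups by -0.23 to 0.24 on the log2 scale and Socs7 by -0.22 to 0.31, with SEs of 0.21 to 0.24. All 6 ZT0-EX hearts lay above the ZT0-SED median for Socs7, yet its exercise effect at ZT0, 0.31 ± 0.21, did not pass (edgeR, adjusted p = 0.575).

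**Figure D3:**
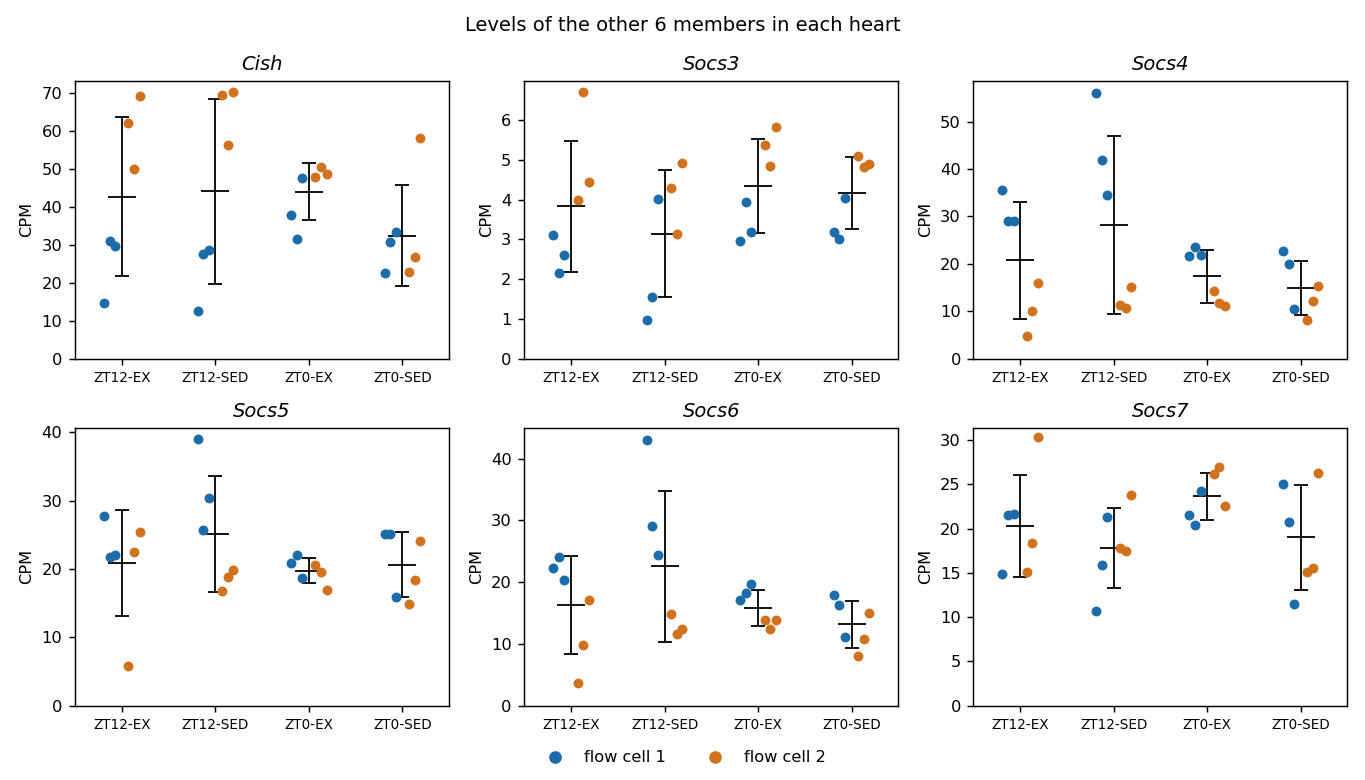
Levels of the other 6 genes (y axes, CPM on linear scales that differ between panels) in each heart, by group and flow cell; the horizontal line is the mean and the bar 1 SD (n = 6). Socs4 and Socs6 reach their highest levels in ZT12-SED hearts of flow cell 1, at 56.0 and 43.0 CPM, and Cish is higher on flow cell 2 at ZT12.

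**Figure D4:**
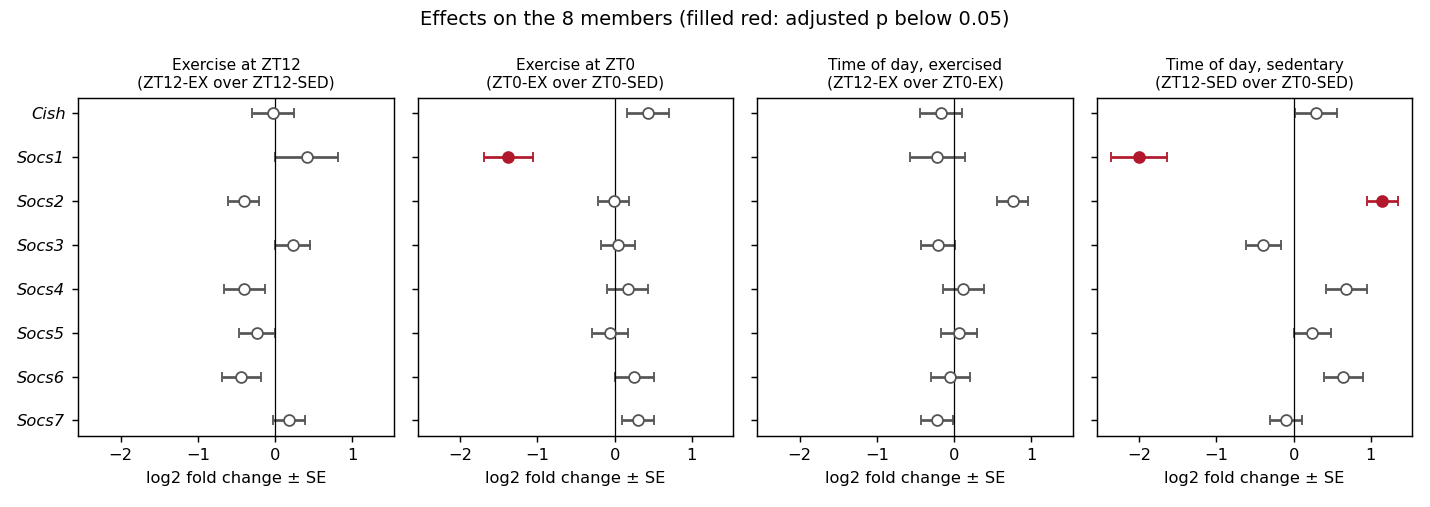
Log2 fold changes with SE (x axes) of the 8 genes in the exercise and time-of-day comparisons, from the edgeR fit to 24 libraries; filled red points have an adjusted p below 0.05. Socs1 is filled for exercise at ZT0 (-1.37) and for time of day in sedentary mice (-2.00), and Socs2 for time of day in sedentary mice (1.15).

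Over the 8 members the median log2 fold change was -0.13 for exercise at ZT12, 0.11 for exercise at ZT0, -0.11 for time of day in exercised mice and 0.27 for time of day in sedentary mice. The medians over all genes tested were 0.06, -0.01, 0.02 and -0.01 in the same order of comparisons. The family did not move as a block: in sedentary mice its highest fold change was 1.15 and its lowest -2.00. The exercised and the sedentary time-of-day comparisons share no library, whereas each exercise comparison shares its sedentary hearts with the sedentary time-of-day comparison.

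Flow cell separated the members by base composition. Taking group into account, the level on flow cell 2 minus that on flow cell 1 was -1.25 in log2 CPM for Socs4, whose longest transcript has 38.5% GC, and -0.88 for Socs6 with 39.9%. It was -0.68 for Socs2 with 45.4%, -0.43 for Socs5 with 47.8%, 0.87 for Cish with 53.1%, 0.16 for Socs7 with 53.8%, 0.79 for Socs3 with 58.7% and 1.32 for Socs1 with 58.8%. The GC-poor members were higher on flow cell 1 and the GC-rich members on flow cell 2, with a Spearman correlation across the 8 genes of 0.929, given as a description since the genes share libraries. The flow cells differ in libraries and mice alike, so a cause within them cannot be told apart.

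**Figure D5:**
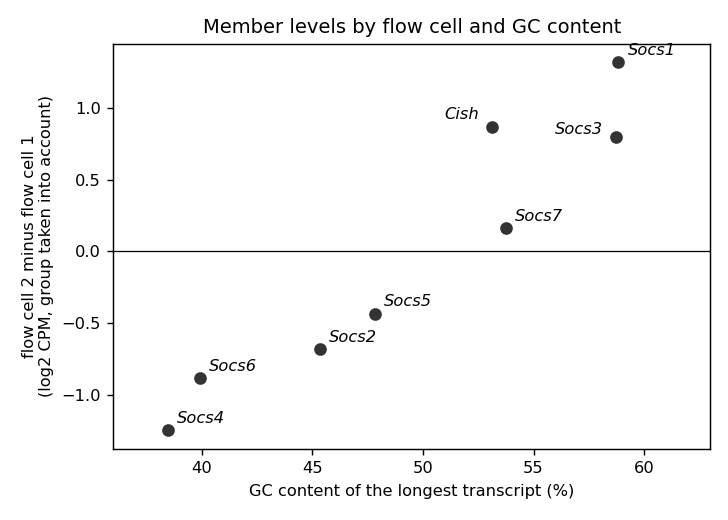
Difference in level between flow cells (y axis, flow cell 2 minus flow cell 1 in log2 CPM, with group taken into account) against GC content of the longest transcript (x axis, %) for the 8 genes. The values run from -1.25 for Socs4 at 38.5% GC to 1.32 for Socs1 at 58.8% GC.

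Among members, Socs4 and Socs6 varied most alike across the 24 libraries once the mean of each flow cell was taken off, with a Pearson correlation of log2 CPM of 0.93. Socs5 followed them, at 0.86 with Socs6 and 0.83 with Socs4. Socs2 ran opposite to both Socs1 and Socs3, with correlations of -0.65 for each pair. Beyond the family, and by the same measure among genes averaging 1 or more in log2 CPM, the patterns most like Socs2 were those of Wdr36 (0.942), Cldn12 (0.924) and Etfbkmt (0.912). Their transcripts hold 43.4% to 44.5% GC, against 45.4% for Socs2. Those most like Socs1 were Samd1 (0.818), Trim27 (0.817) and Sept4 (0.807), with 67.3%, 51.4% and 54.1% GC against 58.8% for Socs1. These correlations describe libraries that share group, flow cell and base composition effects, and they carry no test.

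The wider pathway was described with 11 lists of 111 genes, of which 97 were tested. Most of it did not pass in any comparison. Exercise at ZT12 passed 0 of the 97 by edgeR, with 21 at an unadjusted p below 0.05 and 4 passed by DESeq2 and 0 by limma-voom. Of all genes, edgeR passed 0.294% there and DESeq2 221 of 15282. Exercise at ZT0 passed 3 higher and 0 lower, where 1.08% of all genes passed. Time of day in exercised mice passed 1 higher and 1 lower, where 1.65% of all genes did, and the sedentary time-of-day comparison 5 higher and 3 lower, where 5.20% did. None of the 4 JAK kinases, 5 STATs examined, 5 tested ligands, 15 interferon and common chain receptors, 11 other JAK-STAT inhibitors, 6 ubiquitin ligase partners of the SOCS box or 6 STAT5 targets passed in any comparison. The 3 tested receptors of the growth hormone, prolactin and erythropoietin type, which Socs2 and Cish are known to restrain, did not pass either. These are results of edgeR. Over the same 8 lists and all 5 comparisons, 43 gene tests had an unadjusted p below 0.05, DESeq2 passed 14 and limma-voom 1. Of all genes, DESeq2 passed 2845 of 14985 for time of day in sedentary mice. It passed 267, 221, 5 and 535 of 15282 for exercise at ZT0, exercise at ZT12, the difference between the exercise effects and time of day in exercised mice. Shares of all genes at an unadjusted p below 0.05 are not given here, so the counts describe the lists only.

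Of the 9 gp130 family receptors, 3 were higher in ZT12-SED than in ZT0-SED hearts, where 2.46% of all genes were, and the list's median log2 fold change was 0.30 against -0.01 for all genes. Lifr, which binds leukaemia inhibitory factor, averaged 69.0 ± 31.8 CPM in ZT12-SED and 33.8 ± 8.05 CPM in ZT0-SED hearts (SD, n = 6 each), a log2 fold change of 0.92 ± 0.20 (edgeR, adjusted p = 0.0103). Osmr, the oncostatin M receptor, rose by 0.75 ± 0.21 (edgeR, adjusted p = 0.0433) and averaged 28.3 ± 12.6 CPM in ZT12-SED and 15.7 ± 4.62 CPM in ZT0-SED hearts. Lepr, the leptin receptor, rose at ZT12 in sedentary mice by 0.97 ± 0.28 (edgeR, adjusted p = 0.0450) and in exercised mice by 1.15 ± 0.28 (edgeR, adjusted p = 0.0289). All of these were larger on flow cell 1: the sedentary differences in mean log2 CPM were 1.31 and 0.56 for Lifr, 1.18 and 0.39 for Osmr and 1.53 and 0.41 for Lepr on flow cells 1 and 2.

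Genes that STAT3 is known to switch on gave mixed directions. Of 11 STAT3 targets, 2 were higher after exercise at ZT0, where 0.791% of all genes were: Cebpd, a transcription factor of the acute-phase response, at 1.41 ± 0.29 (edgeR, adjusted p = 0.0105), and Bcl2l1, which encodes the survival protein Bcl-xL, at 0.97 ± 0.22 (edgeR, adjusted p = 0.0273). Bcl2l1 averaged 43.0 ± 7.52 CPM in ZT0-EX and 22.8 ± 6.31 CPM in ZT0-SED hearts. At rest 2 of the 11 were higher and 1 lower at ZT12, beside 2.46% and 2.74% of all genes. Cebpd was higher at ZT12 by 1.52 ± 0.29 (edgeR, adjusted p = 0.00295), with differences of 1.42 and 1.40 on flow cells 1 and 2. The survival gene Mcl1, named here after its values were seen, was higher by 0.70 ± 0.19 (edgeR, adjusted p = 0.0367), whereas Bcl3 was lower by a log2 fold change of -1.40 ± 0.33 (edgeR, adjusted p = 0.0176). The list's median was 0.25 for exercise at ZT0 and 0.31 for time of day at rest, against -0.01 for all genes in both.

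Among 22 tested genes for other SOCS box proteins, 3 members of the SPRY domain family passed in 1 comparison or more. By comparison the list had 1 higher gene after exercise at ZT0, where 0.791% of all genes were higher, 2 lower genes for time of day in sedentary mice, where 2.74% were lower, and 1 lower gene in exercised mice, where 0.837% were. Spsb1 was higher after exercise at ZT0 by 0.83 ± 0.20 (edgeR, adjusted p = 0.0469), at 25.4 ± 4.87 CPM in ZT0-EX and 14.6 ± 4.12 CPM in ZT0-SED hearts. Spsb4 was lower at ZT12 in sedentary mice, at -0.86 ± 0.21, and in exercised mice, at -0.97 ± 0.21 (edgeR, adjusted p = 0.0198 and 0.0114). Spsb3 was lower in ZT12-SED than in ZT0-SED hearts, at -1.60 ± 0.35 (edgeR, adjusted p = 0.0103), and the differences in mean log2 CPM were -2.98 (flow cell 1) and -0.58 (flow cell 2).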

How the data were processed

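Poly-A RNA of 24 hearts was sequenced from Illumina TruSeq libraries, per the labels' protocols. Each deposited file holds raw counts of reads for 52350 Ensembl genes, which the authors made with Trimmomatic 0.39, HISAT2 2.2.1 and featureCounts 2.0.1 on GRCm39, per the submitters' processing notes. The sources used here give neither settings, annotation release nor strand use, so genes with antisense partners are uncertain. Symbols, lengths and GC content came from a GRCm38 annotation matched by Ensembl identifier (52093 matched), and gene coordinates are not given. Promoters came from RefSeq (GRCm38.p6).

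Counts were tested in R 4.3.3 with edgeR 4.0.16 (filterByExpr, TMM, robust quasi-likelihood fit) in a single fit to 24 libraries with group and flow cell as terms, 19 residual degrees of freedom and Benjamini-Hochberg adjustment over 15294 genes at 0.05. The steps were tested on simulated counts that held no flow cell or GC effect, so that test does not cover such effects. Values within a flow cell compare mean log2 CPM (prior count 2) over 3 mice per group, and floors of 3 counts cover counting error only. No pair of libraries looked like a repeated deposit (among 60 pairs, chi-square per degree of freedom was at least 13.3). Fits with DESeq2 1.42.0, limma-voom (limma 3.58.1), 2 surrogate variables (sva 3.50.0), GC offsets, other filters and scalings, and sets of libraries left out served as alternatives. Named were all 8 members, up to 3 genes per pathway list with the smallest p among those past the threshold, and the 3 genes most like each called member, predicted gene models skipped. Mcl1 and the marker genes Ccr2 and Cx3cr1 were named outside that rule. The members, lists and tests were chosen with earlier results of these data known. A list of target genes and a transcription factor are not reported here.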

Additional observations from a re-analysis of the deposited data

Results flagged for a closer look

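In each of 32 sets of 6 hearts (8 genes by 4 groups), the highest and lowest CPM were examined for their gap to the nearest other heart. Dixon's limit for that gap, 0.625 of the whole range, is exceeded by chance in about 1 of 20 sets from a single normal distribution. Each set here mixes 2 flow cells on which levels differ, so that rate need not hold and outlying values within a flow cell can be missed. A pair of values exceeded the limit. Socs5 was at 5.84 CPM in ZT12-EX replicate 4, against 21.8 to 27.8 CPM in the other 5 hearts, a gap of 0.726 of the range. This library is among the 3 that correlated least with the rest. Cish was at 58.0 CPM in ZT0-SED replicate 6, against 22.6 to 33.4 CPM in the other 5 hearts, a gap of 0.697 of the range. That library is among the 6 with fast skeletal muscle transcripts. The part of these library features in either value was not tested.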

How the results depend on the processing

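Over the alternatives, 514 gene results kept direction and side of the threshold, 8 lost a call, 9 gained a call and 48 changed sign, none of the last a called value; over the fits that left out a single library the numbers were 924, 8, 8 and 20. In sedentary mice Socs2 was called in 14 of 15 alternatives (0.64 to 1.58; lost on flow cell 2 alone) and in 24 of 24 fits without a library (0.94 to 1.27), and Socs1 in 10 of 12 (-2.06 to -1.57) and 24 of 24 (-2.25 to -1.75). For exercise at ZT0 Socs1 was called in 8 of 13 alternatives (-1.96 to -0.87) and 16 of 24 fits without a library (-1.54 to -1.10). It was lost with library totals in place of TMM (-1.36, adjusted p 0.0752), with no filter (-1.38, 0.0738), with no flow cell term (-1.19, 0.843), on flow cell 2 alone (-0.87, 0.570) and without the muscle-bearing libraries (-1.96, 0.235). The stricter filter and flow cell 1 alone removed Socs1 before testing, as did the fit to only the compared sedentary groups. The count of members called for exercise at ZT0 was therefore 0 under library totals, no filter, the stricter filter, no flow cell term, either flow cell alone and without the muscle-bearing libraries, and 0 to 1 without a single library. For time of day in sedentary mice it was 1 under the stricter filter, no flow cell term and only the groups compared, 0 on flow cell 2 alone, and 2 to 4 without a single library. The gains there were Socs4 and Socs6, without ZT12-EX replicate 4 (0.70, adjusted p 0.0369, and 0.66, 0.0287) or ZT0-SED replicate 6 (0.85, 0.0382, and 0.80, 0.0405). Socs4 also passed with DESeq2 (0.70, adjusted p 0.0494), both on flow cell 1 alone (1.26 and 1.04, adjusted p 0.00329 and 0.00486) and Socs6 without the muscle-bearing libraries (0.83, 0.0357). In these fits many more genes passed in all than the 795 of the main fit. The totals were 6552 of 15071 on flow cell 1 alone, 2845 with DESeq2 and 3133 without the muscle-bearing libraries. They were 3273 without ZT12-EX replicate 4 and 2808 without ZT0-SED replicate 6. For time of day in exercised mice the count was 1, Socs2, with DESeq2, limma-voom, 2 surrogate variables, GC offsets and without the 3 least correlated libraries (0.63 to 0.77, adjusted p 0.00567 to 0.0443). It was 0 to 1 without a single library, with Socs2 gained without ZT12-EX replicate 3 or 6 or ZT12-SED replicate 1 or 6. For exercise at ZT12 and for the difference between the exercise effects it was 0 in every fit, and the fit to only the groups compared gives no value for that difference. Replicate numbers do not pair the mice here: the correlation of same-numbered deviations across groups ran from -0.45 to 0.78 (median 0.0065, 15 of 36 pairs above 0.1). With the replicate block in place of flow cell, Socs1 was -1.38 for exercise at ZT0 (adjusted p 0.0412), Socs1 and Socs2 were -2.04 and 1.12 for time of day in sedentary mice (adjusted p 0.00295 and 0.00255), no call changed, and Socs5 in exercised mice turned to -0.0098. Library totals shifted the median of all genes to -0.18 for time of day in sedentary mice, to 0.20 for exercise at ZT12 and to 0.12 for the difference between the exercise effects. Signs that changed, none with a call, are given next as log2 fold changes from -0.35 to 0.35, and their cause was not tested. For exercise at ZT0, Socs2 was 0.0095 with library totals, 0.00070 with limma-voom, 0.0092 with no flow cell term, 0.0044 with surrogate variables and 0.090 on flow cell 1 alone, Socs3 was -0.027 on flow cell 1 alone, and Socs4 was -0.033 without the muscle-bearing libraries. For exercise at ZT12, Socs5 was 0.016 and Cish 0.035 with library totals, Socs4 was 0.030 and Socs5 0.024 with surrogate variables, Socs3 was -0.072 and Socs7 -0.055 with GC offsets, Cish was 0.15 on flow cell 1 alone, and Socs4, Socs5 and Socs6 were 0.11, 0.10 and 0.050 without the 3 least correlated libraries. For the difference between the exercise effects, Socs5 was 0.053 with library totals, 0.16 with surrogate variables, 0.029 on flow cell 2 alone and 0.16 without the 3 libraries, Socs3 was -0.076 with GC offsets and -0.023 without the 3 libraries, Socs7 was 0.086 on flow cell 1 alone, and Socs2 was 0.036 on flow cell 2 alone. For time of day in sedentary mice, Socs4, Socs5 and Socs6 were -0.0078, -0.28 and -0.035 with surrogate variables, Socs3 and Socs7 were 0.17 and 0.23 with GC offsets, Cish was -0.35 on flow cell 1 alone, Socs5 and Socs7 were -0.061 and 0.041 on flow cell 2 alone, and Socs7 was 0.042 without the 3 libraries. For time of day in exercised mice, Socs5 was -0.036 with limma-voom, Socs6 was 0.038 with no flow cell term, Socs4 and Socs5 were -0.11 and -0.12 with surrogate variables, Socs3 and Socs4 were 0.098 and -0.047 with GC offsets, and Socs6 was 0.28 on flow cell 1 alone. On flow cell 2 alone Socs4, Socs5 and Cish were -0.22, -0.032 and 0.35 there, without the muscle-bearing libraries Socs1 and Socs6 were 0.21 and 0.093, and without the 3 libraries Socs6 was 0.16. Leaving out single libraries changed signs for Socs2 (-0.070 to 0.10), Socs3 (-0.021 to 0.12) and Socs5 (-0.15 to 0.044) in exercise at ZT0, Cish (-0.18 to 0.11) in exercise at ZT12, Socs5 (-0.29 to 0.0013) in the difference between the exercise effects, Socs7 (-0.20 to 0.025) in sedentary mice, and Socs5 (-0.047 to 0.25) and Socs6 (-0.20 to 0.14) in exercised mice. Depth limits Socs1 most, with at most 25 counts in a library.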
